A study of Mus musculus with 6 samples.

Results

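Enteroendocrine cells are the hormone-secreting cells of the intestinal epithelium, and 32 of their genes were followed by symbol through 6 libraries of read counts for 56884 genes. The set comprised 10 transcription factors, 10 peptide hormone genes, *Tph1* (the enzyme that starts serotonin synthesis), 5 granule proteins of the granin and secretogranin families, 4 genes of peptide processing, and the mature-cell genes *Scgn* and *Vwa5b2*. The set was chosen with earlier results of these data known, and each of the 32 symbols matched 1 gene of the files. As background, an enteroendocrine cell begins as a secretory progenitor that escapes Notch signalling and briefly expresses *Neurog3*. *Neurod1*, *Insm1*, *Pax4*, *Rfx6* and *Nkx2-2* act at or soon after that step, whereas hormones, granins and prohormone-processing enzymes accumulate as the cell matures. Mature cells are named by their products, among them GLP-1 from *Gcg* in L cells, *Cck* in I cells, *Gip* in K cells, *Sst* in D cells, and serotonin with *Tac1* in enterochromaffin cells.

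The libraries came from mouse small intestinal organoids with the alleles Villin-CreERT2, Lgr5-EGFP-IRES-CreERT2 and Ythdf2 fl/fl. Cells positive for Lgr5-GFP, the reporter of intestinal stem cells, were sorted 4 or 6 days after the cultures received ethanol (EtOH, the vehicle) or 4-hydroxytamoxifen (4-OHT, stated as 0.5 μM), which activates CreERT2. Vehicle and 4-OHT cultures carried the same alleles. Villin drives CreERT2 throughout the intestinal epithelium, so recombination is not limited to the sorted cells. Day 6 has 2 libraries of each treatment and day 4 has 1 of each. The labels do not say whether the day 6 libraries came from separate cultures, so p-values measure only the spread between these libraries. Library names fall into 2 series, one for each day, and day and library series cannot be told apart.

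Gene counts per library ran from 14345379 to 21461835. Levels are given as TMM-scaled counts-per-million values (CPM), where TMM is a scaling for library size and composition. *Ythdf2*, the floxed gene, stood at 82.9 and 76.1 CPM in the day 6 EtOH libraries and at 208 and 205 CPM in the day 6 libraries labelled 4-OHT. Day 4 gave 76.2 CPM (EtOH) and 168 CPM (4-OHT). A gene-level count need not fall when part of a gene is deleted, but this direction does not check the label, so libraries are named as labelled. Both day 4 libraries differed from those of day 6 in breadth, with 26521 (EtOH) and 24195 (4-OHT) genes counted at least once, against 19522 to 20622. Bulk libraries cannot tell fewer enteroendocrine cells from less enteroendocrine RNA in each sorted cell.

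No enteroendocrine gene passed the day 6 test of 4-OHT against EtOH, whereas the day 4 library labelled 4-OHT held several times more hormone and granin transcript than its EtOH counterpart. The 32 genes together summed to 601 and 507 CPM with EtOH at day 6, and to 897 and 477 CPM in the libraries labelled 4-OHT. At day 4 the sums were 89.9 CPM (EtOH) and 352 CPM (4-OHT), a 3.91-fold difference. The day 4 EtOH library stood alone below the other 5, and the day 6 groups overlapped. It was the lowest of the 6 libraries for 25 of the 29 members that passed the expression filter (16.6% of all tested genes were lowest there), including 17 of 19 mature genes and 8 of 10 factors.

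**Figure D1:**
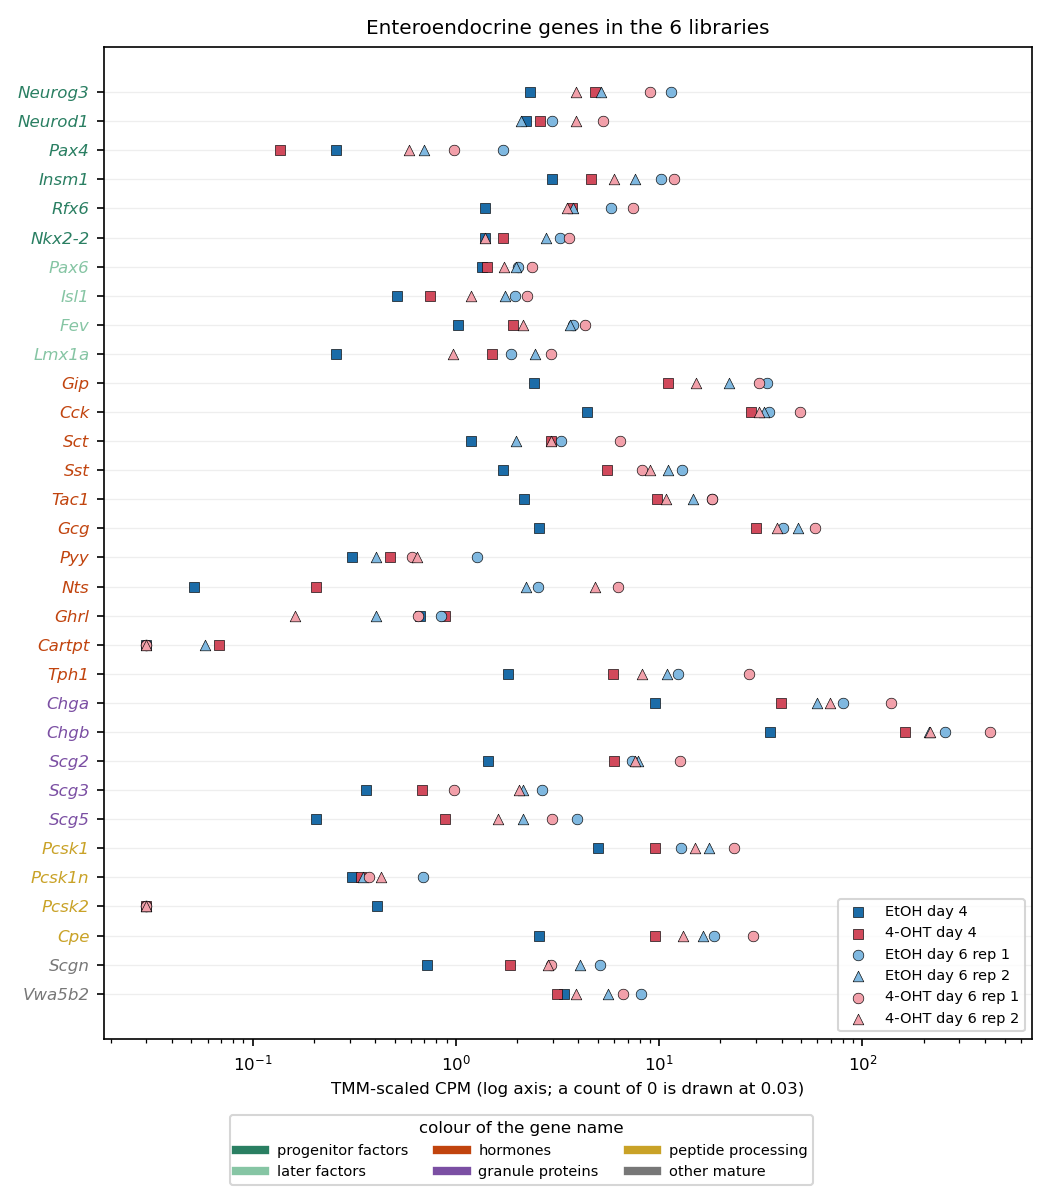
TMM-scaled CPM of each of the 32 genes (log axis) in each of the 6 libraries, 1 marker per library: squares are day 4, circles and triangles the day 6 replicates, blue EtOH and red 4-OHT. For most hormones and granins the dark blue square (EtOH, day 4) lies far to the left of the other 5 markers, as for *Gcg* at 2.57 CPM against 29.9 to 58.6, while for *Neurod1* and *Pax6* it lies among or next to them.

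The transcription factors were low in every library, with a highest mean of 7.21 CPM (*Insm1*). *Neurog3*, which commits a progenitor to the endocrine fate, stood at 11.4 and 5.17 CPM with EtOH at day 6, at 8.99 and 3.91 CPM in the libraries labelled 4-OHT, and at 2.31 (EtOH) and 4.83 CPM (4-OHT) at day 4. Its replicates spread as widely as its groups, and it differed between labels by −0.36 on the log2 scale at day 6 (standard error, SE, 0.45). Of the exon bases of *Neurog3* (chromosome 10, 61968862 to 61970766, plus strand, GRCm39), 41.8% also belong to *Fam241b* on the other strand, so its counts are uncertain where the strand setting of the counting is not given. *Insm1*, a zinc-finger factor of endocrine progenitors, gave 10.2 and 7.60 CPM against 11.8 and 6.01 CPM at day 6, and 2.98 against 4.63 CPM at day 4. *Rfx6*, a winged-helix factor needed for several hormone lineages, gave 5.78 and 3.77 CPM against 7.45 and 3.54 CPM at day 6, and 1.39 against 3.74 CPM at day 4. *Insm1* and *Rfx6* therefore overlapped between the day 6 groups, with log2 fold changes of 0.00 (SE 0.35) and 0.20 (SE 0.41).

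*Neurod1*, a basic helix-loop-helix factor that acts directly after *Neurog3*, was the 1 progenitor factor whose day 6 groups did not overlap. It stood at 2.97 and 2.09 CPM with EtOH and at 5.31 and 3.91 CPM in the libraries labelled 4-OHT, a log2 fold change of 0.86 (SE 0.37). That difference did not pass edgeR's quasi-likelihood test with Benjamini-Hochberg adjustment, at an unadjusted p of 0.0427 and an adjusted p of 0.452. At day 4 it gave 2.21 CPM (EtOH) and 2.58 CPM (4-OHT). *Nkx2-2* (3.23 and 2.79 against 3.59 and 1.39 CPM at day 6) and *Pax4* (1.70 and 0.696 against 0.978 and 0.590 CPM) overlapped between groups. *Pax4* had only 2 to 5 counts in the day 4 libraries.

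Among the later factors, *Pax6*, which is used for hormone gene transcription, stood at 2.01 and 1.97 CPM with EtOH and at 2.38 and 1.72 CPM in the libraries labelled 4-OHT at day 6, and at 1.34 and 1.43 CPM at day 4. *Elp4* shares 21.1% of its exon bases. *Isl1*, a LIM-homeodomain factor of maturing cells, ranged from 0.514 (EtOH, day 4) to 2.24 CPM. *Fev* and *Lmx1a*, both used by serotonin-producing cells, ranged from 1.03 to 4.33 CPM and from 0.257 to 2.93 CPM, each lowest with EtOH at day 4. None of these 4 had day 6 groups that separated, and their day 6 log2 fold changes lay between −0.185 and 0.04.

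*Gcg* and *Cck* were the most abundant hormone transcripts by CPM. *Gcg* encodes proglucagon, the precursor of GLP-1 and GLP-2 (chromosome 2, 62304873 to 62313997, minus strand, GRCm39). It stood at 40.8 and 48.4 CPM with EtOH at day 6, at 58.6 and 37.9 CPM in the libraries labelled 4-OHT, and at 2.57 CPM (50 counts, EtOH) and 29.9 CPM (440 counts, 4-OHT) at day 4. *Cck*, which encodes the cholecystokinin that releases bile and pancreatic enzymes (chromosome 9, 121315695 to 121324863, minus strand), stood at 34.7 and 32.9, and 49.1 and 31.0 CPM at day 6, and at 4.42 (EtOH) and 28.4 CPM (4-OHT) at day 4. Both genes thus overlapped between the day 6 groups and had 1 low library, the day 4 EtOH library. The day 4 ratio of 4-OHT to EtOH was 11.6 for *Gcg* (exact 95% interval 8.68 to 15.9) and 6.42 for *Cck* (5.08 to 8.19). These and the other ratio intervals cover counting error only.

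The 250 bases before the annotated start of *Gcg*, of *Cck* and of *Neurog3* are shown because the first pair had the largest day 4 differences and *Neurog3* marks the progenitor step. Sequences are from GRCm39 with the start of the canonical GENCODE transcript, 5′ to 3′ on the gene's strand. Capitals mark CAGATG, the E-box preferred by Neurog3 and Neurod1, TGACG, the core of the cyclic AMP response element (CRE), which the full CRE also contains, and TATAAA, the TATA box, each on either strand.
Gcg (chr2:62313998-62314247, minus): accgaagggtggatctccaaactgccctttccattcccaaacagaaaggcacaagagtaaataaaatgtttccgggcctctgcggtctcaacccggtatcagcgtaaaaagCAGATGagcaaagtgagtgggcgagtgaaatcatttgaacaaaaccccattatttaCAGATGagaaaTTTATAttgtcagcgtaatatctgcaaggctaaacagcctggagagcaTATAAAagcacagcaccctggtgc
Cck (chr9:121324864-121325113, minus): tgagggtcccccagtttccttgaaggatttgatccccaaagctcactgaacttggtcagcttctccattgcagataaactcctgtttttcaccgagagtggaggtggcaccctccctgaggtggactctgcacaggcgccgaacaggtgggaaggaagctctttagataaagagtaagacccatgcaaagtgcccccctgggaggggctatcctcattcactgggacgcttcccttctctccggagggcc
Neurog3 (chr10:61968612-61968861, plus): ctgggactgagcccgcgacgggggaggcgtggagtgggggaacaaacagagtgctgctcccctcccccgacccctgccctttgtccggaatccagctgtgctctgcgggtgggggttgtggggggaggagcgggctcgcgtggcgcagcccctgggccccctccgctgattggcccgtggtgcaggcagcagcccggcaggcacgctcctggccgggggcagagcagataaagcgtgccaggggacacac
In *Gcg* the E-box letters occurred at positions −139 and −83 and the TATA box at −24, with a reverse-strand TATA match at −72. The windows of *Cck* and *Neurog3* held none of the motifs. Among the 32 members, 7 windows held the E-box (*Chgb*, *Gcg*, *Neurod1*, *Nkx2-2*, *Rfx6*, *Sct*, *Tac1*) and 13% of 21751 protein-coding windows did. The CRE core was found in 8 member windows against 18% of all windows, and the TATA box in 3 against 11.9%. A match is a run of letters and not a bound site.

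*Gip*, the incretin of K cells, stood at 33.9 and 22.1 CPM with EtOH and at 31.1 and 15.2 CPM in the libraries labelled 4-OHT at day 6, and at 2.42 (EtOH) and 11.0 CPM (4-OHT) at day 4. *Tac1*, the precursor of substance P, stood at 18.2 and 14.7 CPM, and 18.2 and 10.8 CPM at day 6, and at 2.16 and 9.80 CPM at day 4. Their day 4 ratios were 4.56 (3.28 to 6.46) and 4.54 (3.20 to 6.56), and their day 6 log2 fold changes were −0.28 (SE 0.33) and −0.18 (SE 0.28). *Tph1* stood at 12.4 and 11.0 CPM with EtOH at day 6, at 27.7 and 8.20 CPM in the libraries labelled 4-OHT, and at 1.80 and 5.92 CPM at day 4. Its high day 6 value was therefore that of 4-OHT replicate 1 alone. *Sct*, the secretin that prompts bicarbonate release, stood at 3.29 and 1.97 CPM against 6.43 and 2.95 CPM at day 6, and at 1.18 against 2.92 CPM at day 4.

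*Sst*, the inhibitory hormone of D cells, was lower in both day 6 libraries labelled 4-OHT, at 8.20 and 9.06 CPM, than with EtOH, at 13.0 and 11.0 CPM. The difference of −0.48 on the log2 scale (SE 0.26) did not pass edgeR's quasi-likelihood test with Benjamini-Hochberg adjustment, at an adjusted p of 0.606. At day 4 the order was the other way, with 1.70 CPM (EtOH) and 5.51 CPM (4-OHT), a ratio of 3.25 (2.14 to 5.03). The remaining peptides were near the lower limit. *Pyy*, made by L cells of the distal gut, ranged from 0.308 to 1.27 CPM, *Ghrl*, the ghrelin gene, from 0.161 to 0.884 CPM, and *Cartpt* had 0 or 1 counts in each library.

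*Nts*, the neurotensin precursor made by maturing cells of the villus, was the 1 member called by any of the 3 main tests. Its counts were 48 and 38 with EtOH at day 6 and 134 and 90 in the libraries labelled 4-OHT, or 2.54 and 2.21 CPM against 6.24 and 4.83 CPM. At day 4 only 1 (EtOH) and 3 (4-OHT) counts were found, so *Nts* separated the days in both treatments and no day 4 fold is given. In the fit that joined both days, *Nts* was higher by 1.24 on the log2 scale (SE 0.30), at an adjusted p of 0.0414 in edgeR's quasi-likelihood test with Benjamini-Hochberg adjustment. At day 6 alone it was higher by 1.22 (SE 0.35), at an adjusted p of 0.142 in the same test. The call was lost under DESeq2 (adjusted p = 0.0654), limma-voom (0.0732), without a day term (0.573) and without any one of the 6 libraries (0.0732 to 0.269). It was kept under another scaling and with both other filters. Without either day 4 library the day term fits the other exactly, so those fits rest on the day 6 libraries alone.

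The granins, acidic proteins that pack peptides into dense-core granules, held most of the members' counts. *Chgb* (chromosome 2, 132622464 to 132637904, plus strand) stood at 255 and 213 CPM with EtOH at day 6, at 423 and 215 CPM in the libraries labelled 4-OHT, and at 35.0 (EtOH) and 162 CPM (4-OHT) at day 4. *Chga* (chromosome 12, 102520484 to 102531300, plus strand) stood at 80.5 and 60.0 CPM, and 138 and 69.2 CPM at day 6, and at 9.56 and 39.9 CPM at day 4. In both genes 4-OHT replicate 1 of day 6 was the highest library and the day 4 EtOH library the lowest. Their day 4 ratios were 4.61 (4.23 to 5.03) and 4.17 (3.53 to 4.95), and their day 6 log2 fold changes were 0.44 (SE 0.27) and 0.56 (SE 0.29).

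*Scg2*, the secretogranin II gene, repeated this order at a lower level, with 7.32 and 7.89 CPM against 12.6 and 7.56 CPM at day 6, and 1.44 against 5.99 CPM at day 4. *Scg3*, which anchors granins to the granule membrane, was lower in both day 6 libraries labelled 4-OHT (0.978 and 2.04 CPM) than with EtOH (2.65 and 2.15 CPM), with an adjusted p of 0.730 by edgeR's quasi-likelihood test with Benjamini-Hochberg adjustment. *Scg5*, the chaperone of the convertase PC2, ranged from 0.206 CPM (EtOH, day 4) to 3.92 CPM. Its day 4 ratio of 4.30 had a wide interval, 1.33 to 18.1, since it rested on 4 and 13 counts.

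Of the processing genes, *Pcsk1*, which encodes the convertase PC1/3 that cuts proglucagon into GLP-1, stood at 12.8 and 17.6 CPM with EtOH and 23.4 and 15.0 CPM in the libraries labelled 4-OHT at day 6. At day 4 it gave 4.98 and 9.52 CPM, a ratio of 1.91 (1.46 to 2.50). *Cpe*, the carboxypeptidase that trims the cut peptides, stood at 18.6 and 16.4 against 28.9 and 13.1 CPM, and at 2.57 against 9.52 CPM at day 4. *Pcsk1n*, an inhibitor of PC1/3, ranged from 0.308 to 0.689 CPM. *Pcsk2*, the other prohormone convertase, had 0 counts in 5 libraries and 8 in the day 4 EtOH library. *Scgn*, a calcium sensor of endocrine cells, gave 5.09 and 4.06 CPM with EtOH and 2.93 and 2.84 CPM with the 4-OHT label at day 6, and 0.719 and 1.84 CPM at day 4. *Vwa5b2* gave 8.11 and 5.57 against 6.61 and 3.91 CPM at day 6 and was nearly level at day 4, with 3.39 and 3.13 CPM.

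Levels of different genes were compared per length, as mean CPM over the 6 libraries for each kilobase of annotated exon. On this scale *Chgb* was highest at 53.1, followed by *Gip* (23.8), *Gcg* (23.6) and *Chga* (10.2), and *Cck* stood at 5.51. *Neurog3* led the factors at 3.20, above *Tac1* at 2.68. These are means over libraries of unlike level, and *Gip* was not above or below *Gcg* in every library. The unions of annotated exons include rare long isoforms, so these values are approximate.

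The day 6 test called 0 of 29 members, against 353 of 14066 genes in all (2.51%), by edgeR's quasi-likelihood test with Benjamini-Hochberg adjustment. An unadjusted p under 0.05 was found for 2 members, *Neurod1* and *Nts*, and for 10.3% of all genes. Both 4-OHT libraries lay above both EtOH libraries for the same pair (20.5% of all genes) and below them for *Sst*, *Scg3* and *Scgn* (18.4% of all genes). Of the 29 members, 14 had a positive and 15 a negative fold change, with a median log2 fold change of −0.10 against −0.01 over all genes. DESeq2 and limma-voom also called 0 members, against 502 and 290 genes in all. Leaving out 4-OHT replicate 2 changed the calls, but that fit leaves 1 library in its group, so only fold changes are given. *Chgb* then differed by 0.84 on the log2 scale, and by −0.12 without 4-OHT replicate 1.

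The 3 not tested at day 6, *Cartpt*, *Pcsk1n* and *Pcsk2*, did not pass the filter on low counts. By role, the median day 6 log2 fold change was −0.13 for the 6 progenitor factors and −0.11 for the 4 later factors. Among mature genes it was −0.04 for 10 hormones (with *Tph1*) and 0.41 for 5 granule proteins. It was 0.30 for 2 processing genes and −0.52 for *Scgn* and *Vwa5b2*. Over both days with day as a term, 1 of 29 members was called (*Nts*, described above), against 617 of 14060 genes (4.39%). An unadjusted p under 0.05 was found for 7 members and for 16.1% of all genes. These 7 comprised *Neurod1*, *Cck*, *Sct*, *Nts*, *Chga*, *Chgb* and *Scg2*, all with a positive fold change.

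Members varied together between replicates. In the libraries labelled 4-OHT of day 6, replicate 1 exceeded replicate 2 for 26 of the 29 tested members (50.5% of all tested genes), and the summed level was 1.88-fold higher. In the EtOH libraries, replicate 1 exceeded replicate 2 for 25 of 29 members (50.7% of all tested genes), 1.19-fold in sum. The 10 factors summed to 50.0 and 25.4 CPM in the libraries labelled 4-OHT and the 11 hormone genes to 207 and 121 CPM, so progenitor and mature genes shared this spread. The 10 Paneth cell markers examined summed to 5031 and 2115 CPM in the same libraries, and their part in the spread was not tested.

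**Figure D2:**
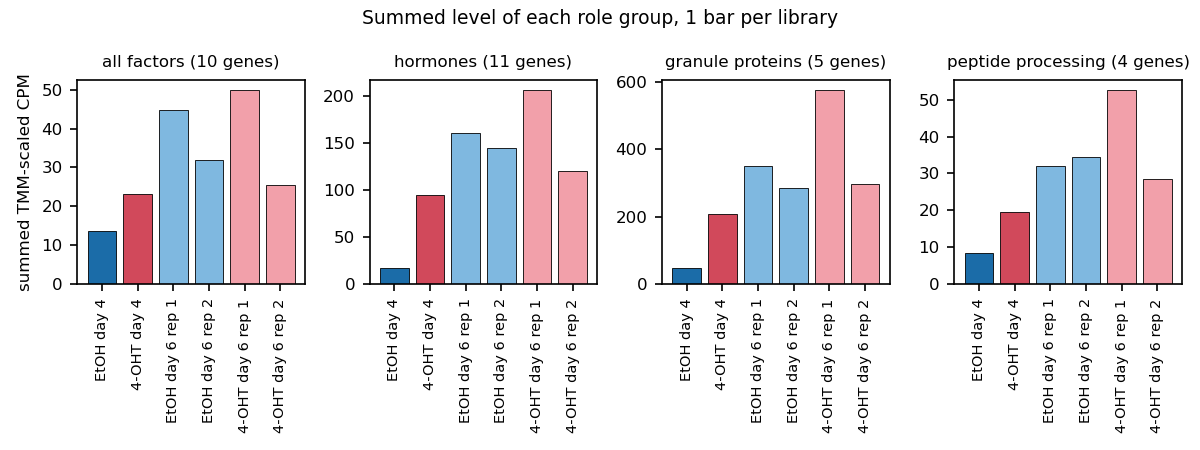
Summed TMM-scaled CPM of the 10 factors, 11 hormone genes, 5 granule proteins and 4 processing genes, 1 bar per library, each panel with its own linear axis from 0. The day 4 EtOH bar is lowest in each panel, at 13.7 CPM for factors, 17.3 CPM for hormones, 46.6 CPM for granule proteins and 8.27 CPM for processing genes, and the highest bar in each panel is 4-OHT replicate 1 of day 6.

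The day 4 pair was examined by role, since progenitor and mature genes differed by unlike amounts there. With 1 library per label the values compare these libraries and have no replicate check. Factors summed to 13.7 CPM (EtOH) and 23.2 CPM (4-OHT), or 1.70-fold. Hormones summed to 17.3 and 95.1 CPM, or 5.51-fold, and granule proteins to 46.6 and 209 CPM, or 4.49-fold. Peptide processing genes differed 2.34-fold, and *Scgn* and *Vwa5b2* together 1.21-fold, which was less than the factors. Factors made up 15.2% of the member counts in the day 4 EtOH library (exact 95% interval 13.5% to 17.0%). They made up 6.60% in the day 4 library labelled 4-OHT and 5.32% to 7.48% at day 6.

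Within each role the day 4 ratios varied, and the roles overlapped. Progenitor factor ratios were 1.17 for *Neurod1* (0.736 to 1.85), 1.23 for *Nkx2-2* (0.682 to 2.19), 1.55 for *Insm1* (1.08 to 2.24), 2.09 for *Neurog3* (1.42 to 3.11) and 2.70 for *Rfx6* (1.67 to 4.45). *Pax6* was at 1.07 (0.572 to 1.98), and *Lmx1a*, with 5 and 22 counts, at 5.82 (2.15 to 19.7). Among the mature genes, *Vwa5b2* (0.923), *Pcsk1n* (1.10), *Ghrl* (1.32), *Pyy* (1.54), *Scg3* (1.89) and *Pcsk1* (1.91) had ratios below that of *Neurog3*. So did *Pcsk2*, with 8 (EtOH) and 0 (4-OHT) counts and a ratio of 0 (0 to 0.78). Of the 21 members with a mean of at least 1 CPM over the day 4 pair, 14 were at least 2-fold higher in the library labelled 4-OHT (4.63% of 12836 genes were) and 0 were at least 2-fold lower (1.4% of genes). The 14 held 2 of 7 factors and 12 of 14 mature genes. Their median log2 fold change was 0.62 for the factors and 1.91 for the mature genes, against −0.0028 over all genes. The 11 members under 1 CPM were *Pax4*, *Isl1*, *Lmx1a*, *Pyy*, *Nts*, *Ghrl*, *Cartpt*, *Scg3*, *Scg5*, *Pcsk1n* and *Pcsk2*.

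The 4-OHT difference was then compared between the days by a treatment-by-day interaction. Day 4 had 1 library per treatment, so every SE and p-value of this comparison assumes for day 4 the spread of the day 6 replicates. The fitted difference was more positive at day 4 than at day 6 for 27 of 29 members and for 50.2% of all genes, but 0 members and 0 of 14060 genes (0%) were called by edgeR's quasi-likelihood test with Benjamini-Hochberg adjustment. An unadjusted p under 0.05 with the more positive value at day 4 was found for 10 members and for 0.917% of all genes. These 10 were the hormones *Gip*, *Cck*, *Sst*, *Tac1* and *Gcg*, the granins *Chga*, *Chgb* and *Scg2*, and *Cpe* and *Scgn*, with 0 of the 10 factors. The members were chosen with earlier results known and share the same day 4 libraries. These counts therefore describe the set and are no test of it. *Gcg* had the largest value, 3.42 (SE 0.46) on the log2 scale, with an adjusted p of 0.207, and *Cck* followed with 2.43 (SE 0.44) and 0.823 in the same test.

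DESeq2 called 2 members in this comparison, *Gcg* (adjusted p = 1.8e-07) and *Cck* (0.00797), among 6 genes in all (0.0427% of those tested), and limma-voom called 0. In the edgeR fit without 4-OHT replicate 1 of day 6 the log2 difference was 3.8 for *Gcg* and 2.8 for *Cck*. Without 4-OHT replicate 2 it was 3.2 and 2.2. Calls changed in both fits, each of which leaves 1 library in that day 6 group, so only effect sizes are given. When the spread of the day 6 replicates was assumed to hold for the single day 4 libraries, the day 4 difference itself passed in edgeR's quasi-likelihood test for *Gcg* (log2 3.54, SE 0.40, adjusted p = 0.00373) and *Cck* (2.68, SE 0.38, adjusted p = 0.0146), 2 of 29 members against 0.341% of genes. *Chgb* lay at the threshold with an adjusted p of 0.0504. That day 4 libraries vary as those of day 6 do was not tested.

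**Figure D3:**
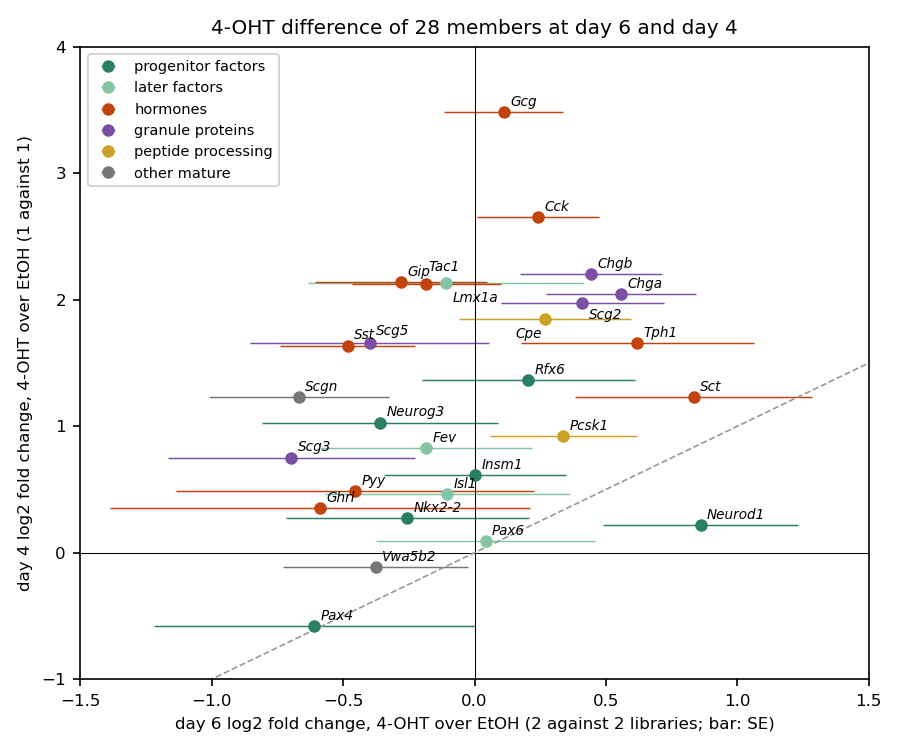
log2 fold change of 4-OHT over EtOH at day 6 (horizontal, 2 against 2 libraries, bars are SE) and at day 4 (vertical, 1 against 1 library) for 28 tested members, coloured by role; *Nts* is left out because both of its day 4 counts are at or under 3, and the dashed line marks equal values. *Gcg* (0.11 and 3.49) stands farthest above the dashed line, *Sct* (0.83 and 1.23) lies close to it, and *Neurod1* (0.86 and 0.22) lies below it.

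The makeup of the hormone pool also differed in the day 4 EtOH library. *Gcg* held 16.6% of its 301 peptide hormone counts (exact 95% interval 12.6% to 21.3%), against 27.5% to 36.1% in the other 5 libraries. The intervals of the EtOH replicates of day 6, 25.8% to 29.2% and 34.1% to 38.1%, did not overlap each other either, so counting error understates the spread between libraries. *Ghrl* held 4.32% there and 0.143% to 0.992% elsewhere, and *Sct* 7.64% against 1.47% to 3.59%. *Nts* separated by day, with 0.229% and 0.332% at day 4 and 1.64% to 4.29% at day 6. *Cck* held 23.4% to 31.8% of the pool and *Tac1* 9.63% to 14.0%. *Neurog3* counts per 1000 *Chgb* counts were 66.0 in the day 4 EtOH library, 29.9 in the day 4 library labelled 4-OHT, and 18.2 to 44.7 at day 6.

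**Figure D4:**
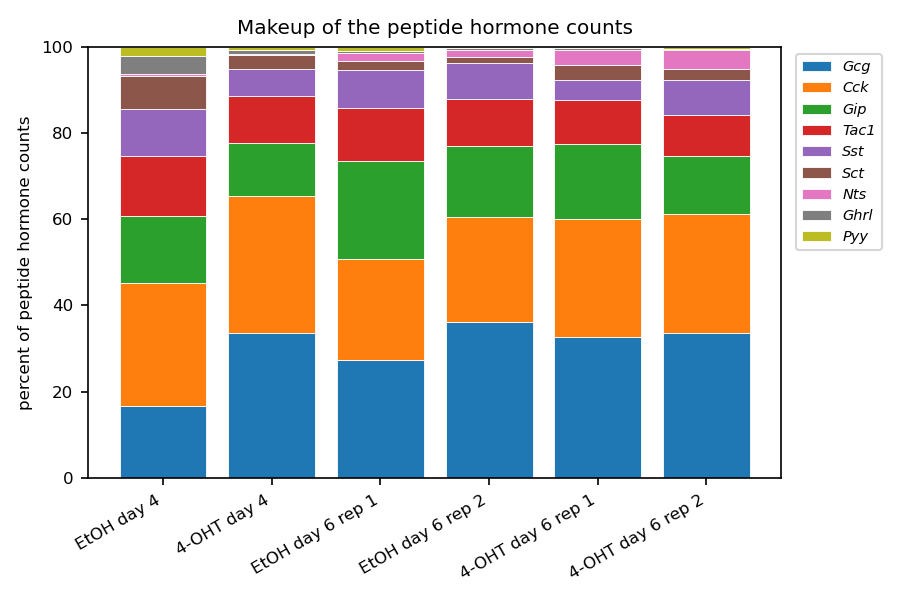
Percent of the counts of the peptide hormone genes held by each of 9 genes (stacked, linear axis from 0 to 100), 1 bar per library; *Cartpt*, at no more than 1 count per library, is not drawn. The *Gcg* segment is shortest in the day 4 EtOH library (16.6%) and the *Nts* segment is wider in the day 6 libraries (1.64% to 4.29%) than in those of day 4 (0.229% and 0.332%).

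Further genes of the same programme were examined as lists. Of 20 other endocrine factors (among them *Pdx1*, *Foxa1* and *Sox4*), 18 were tested over both days and 0 were called (4.39% of all genes were), with a median log2 fold change of −0.06. *Etv1*, an ETS factor, had 4 (EtOH) and 26 (4-OHT) counts at day 4. Of 20 genes of exocytosis and excitability, 20 were tested and 0 were called, beside the same 4.39% of all genes. At day 4, 4 of the 15 at 1 CPM or more were at least 2-fold higher with the 4-OHT label, beside 4.63% of all genes. *Scn3a*, a sodium channel of endocrine cells, had 8 and 33 counts at day 4. In the list of 15 other gut peptides 2 were tested and 0 called, beside the same 4.39%, and *Ucn3* had 4 and 17 counts at day 4.

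Of 16 genes of amine synthesis and nutrient sensing, 9 were tested and 1, *Ffar4*, rose over both days, beside 4.39% of all genes called. *Ffar4* encodes a receptor for long-chain fatty acids. It stood at 9.81 and 8.76 CPM with EtOH and at 16.1 and 14.6 CPM in the libraries labelled 4-OHT at day 6, and at 7.25 and 13.1 CPM at day 4, so each 4-OHT value exceeded each EtOH value. It was higher by 0.76 on the log2 scale (SE 0.17), at an adjusted p of 0.0367 in edgeR's quasi-likelihood test with Benjamini-Hochberg adjustment. Leaving out 1 library gave an adjusted p of 0.0455 to 0.256 in that edgeR test, the lowest being the 1 that still passed, without EtOH replicate 1 of day 6. Without a day term its adjusted p was 0.0756, and at day 6 alone it was 0.246, both by edgeR. The fits without either day 4 library also rest on day 6 alone. *Trpa1*, an irritant-sensing channel of enterochromaffin cells, had 0 (EtOH) and 26 (4-OHT) counts at day 4. With the EtOH library set to a floor of 3 counts the ratio was 11.5, which leaves out the counting error of the 26. At day 6 it stood at 1.96 and 3.08 CPM against 7.73 and 3.11 CPM, with an adjusted p of 0.432 in the same edgeR test. *Adgrd1*, an adhesion receptor, had 77 (EtOH) and 13 (4-OHT) counts at day 4.

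Of 15 genes acting upstream of *Neurog3* in the choice between absorptive and secretory fate, 14 were tested over both days and 0 were called, a count near the 4.39% of all genes. *Atoh1*, the factor required for all secretory lineages, stood at 19.8 and 16.1 CPM with EtOH and at 17.1 and 13.0 CPM in the libraries labelled 4-OHT at day 6, and at 7.86 and 7.48 CPM at day 4. *Atoh1*, named after its values were seen, was thus nearly level within the day 4 pair. Of the 12 genes of this list at 1 CPM or more at day 4, 5 were higher and 7 lower with the 4-OHT label. 1 of the 15 genes was lowest in the day 4 EtOH library, beside 16.6% of all tested genes.

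Markers of other cell types moved in the same comparisons. The 10 Paneth markers summed to 491 CPM (EtOH) and 1723 CPM (4-OHT) at day 4. At day 6 they summed to 2905 and 2120 against 5031 and 2115 CPM. Of the 10, 9 were lowest in the day 4 EtOH library, beside 16.6% of all tested genes. The 15 enterocyte markers summed to 1774 and 2469 CPM at day 4 and to 2209 and 2340 against 5737 and 4669 CPM at day 6. Over both days 10 were called higher (edgeR's quasi-likelihood test, adjusted p under 0.05), beside 4.39% of all genes called in either direction. Goblet, tuft and stem cell markers had lower day 6 sums with the 4-OHT label. Goblet markers summed to 3431 and 3522 against 2942 and 2649 CPM at day 6, and to 2092 (EtOH) and 2506 CPM (4-OHT) at day 4. At day 6 *Fcgbp* alone held 2198 and 2437 against 1587 and 1692 CPM of the goblet sums. Tuft markers summed to 42.3 and 22.8 against 13.0 and 10.6 CPM, and to 12.0 and 8.64 CPM at day 4. Stem cell markers summed to 6307 and 5919 against 4159 and 3844 CPM, and to 5259 and 4490 CPM at day 4. *Olfm4* alone held 3308 and 2247 against 1322 and 985 CPM of the day 6 stem cell sums. Of the 12 stem cell markers, 3 had a positive and 9 a negative day 6 difference. The 14 immune and stromal markers summed to at most 2.36 CPM and the 12 neuronal and glial markers to at most 8.43 CPM, with *Elavl4*, *Hand2* and *Sox10* at 0 in the day 6 libraries. By the same both-day edgeR test, the enterocyte genes *Apoa1* (apolipoprotein A-I), *Krt20* and *Apoc3* rose over both days by 3.52 (SE 0.23), 2.73 (SE 0.14) and 2.67 (SE 0.26) on the log2 scale, and *Cyp3a11* had 3 (EtOH) and 35 (4-OHT) counts at day 4. Of 10 goblet genes 3 passed, *Zg16*, *Clca1* and *Fer1l6*, which rose by 2.58 (SE 0.24), 1.29 (SE 0.18) and 1.56 (SE 0.34), while at day 6 the 10 split into 5 with a positive and 5 with a negative difference. Of the Paneth genes, the angiogenin *Ang4* rose by 2.11 (SE 0.41), while *Mmp7*, *Pla2g2a* and *Mptx2* did not pass and had 117, 30 and 0 counts (EtOH) against 519, 151 and 11 (4-OHT) at day 4. The tuft factor *Pou2f3* fell by 1.49 (SE 0.34), and the stem cell genes *Olfm4* and *Rgmb* fell by 1.10 (SE 0.20) and 0.56 (SE 0.13). The part of Paneth and enterocyte markers in the enteroendocrine differences was not tested.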

How the data were processed

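The authors deposited whole-number read counts per gene for each library, not normalized, after 4 summary lines that held 19.3% to 26.7% of entries and stayed out of all totals. STAR and mm39 are named in the submitters' processing notes; the annotation release and strand setting are not given in the sources used here. Symbols and positions come from GENCODE M39 on GRCm39 by Ensembl identifier, which matched 56323 of 56884 genes.

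Counts of all genes were fitted with edgeR 4.0.16 in R 4.3.3 (glmQLFit, legacy = FALSE; glmQLFTest; TMM; filterByExpr, minimum count 10), with Benjamini-Hochberg adjustment over all genes tested and a threshold of 0.05. Each SE was recovered from the F statistic, as the size of the log2 difference over the root of F. Fits were day 6 alone (4 libraries), both days with day as a term, and the treatment-by-day interaction. Day 4 log2 fold changes used a prior count of 2. Ratio intervals are exact conditional binomial intervals (95%) and share intervals are Clopper-Pearson. No molecular identifiers are mentioned, so intervals and floors cover counting error only. Replicates of day 6 differed by more than sampling noise (chi-square per degree of freedom 33.2 and 22.9) and were kept apart. Alternatives used DESeq2 1.42.0 and limma 3.58.1, and the script was tested on simulated data.

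The members and lists were chosen with earlier results of these data known. All members are accounted for. Other listed genes are named if called over both days or at least 4-fold different at day 4 with a mean of at least 1 CPM, at most 4 per list. *Atoh1* and *Fcgbp* were added after their values were seen.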

Additional observations from a re-analysis of the deposited data

Results flagged for a closer look

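*Sst*, *Scg3* and *Scgn* had 4-OHT differences of opposite sign on the 2 days. Both day 6 libraries labelled 4-OHT lay below both EtOH libraries for these 3 of the 29 tested members, beside 18.4% of all genes. The day 4 library labelled 4-OHT lay above its EtOH counterpart. For *Scg3* this rested on 7 (EtOH) and 10 (4-OHT) counts, a ratio of 1.89 (0.650 to 5.85). The log2 difference between the days was 2.17 for *Sst* (SE 0.55), 1.60 for *Scg3* (SE 1.24) and 2.01 for *Scgn* (SE 0.80). The interaction test of edgeR called none of them, with an adjusted p of 1 for each.

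*Gcg* and *Cck* had day 4 differences larger than those of day 6 in the DESeq2 interaction test, by 3.42 (SE 0.51) and 2.43 (SE 0.50) on the log2 scale. The remaining genes called there were *Akp3*, *Atg9b*, *Afp* and *Mcam*. Each SE of a difference between the days assumes for day 4 the spread of the day 6 replicates, which was not tested.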

How the results depend on the processing

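The count of 0 members called at day 6 held under another scaling, both other filters, DESeq2 and limma-voom. It also held in the fit of all 6 libraries in 4 groups, but not without 4-OHT replicate 2, which leaves 1 library in that group. A block on replicate number called 1 member, *Nts* (adjusted p = 0.0178), and raised the count over all genes from 353 to 839. The labels do not say that the numbers pair the libraries. Deviations of same-numbered libraries correlated at 0.266 over tested genes.

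Over both days, 1 member became 0 under DESeq2, limma-voom and without a day term, and 0 to 3 when 1 library was left out; the 3 were *Chga*, *Chgb* and *Tph1*, without 4-OHT replicate 2 of day 6. A both-day fit without either day 4 library rests on the day 6 libraries alone, because the day term fits the other day 4 library exactly. The calls of the interaction differed between edgeR and DESeq2, and changed when either day 6 library labelled 4-OHT was left out. The both-day count over all genes fell from 617 to 361 without either day 4 library or without the day term, and to 384 and 394 without 4-OHT replicates 1 and 2 of day 6. The day 6 count fell from 353 to 99 without EtOH replicate 1. When 1 day 6 library was left out, the day 6 log2 fold change ran from −0.24 to 0.39 for *Gcg*, from −0.12 to 0.84 for *Chgb* and from −1.09 to 0.33 for *Neurog3*, so none of these directions was stable.

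The mature genes' median day 6 log2 fold change exceeded that of factors by 0.22, which became −0.081 without a filter on low counts. At day 4 the excess was 1.30 and became 0.90 with the members under 1 CPM included. The causes were not tested. The other alternatives moved these medians and the summed CPM by less than the replicate spread. Low counts limit what can be detected for members such as *Pax4*, with 2 and 5 counts at day 4.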
